A study of Mus musculus with 24 samples.

Results

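Wildtype B cell progenitors were compared with wildtype haematopoietic stem cells (HSC), both sorted from mouse bone marrow and hybridised to Affymetrix expression arrays. The members are 4 of the 24 columns of the deposited table, chosen by their labels: 2 arrays of B cell progenitors and 2 arrays of HSC, all of RMA set 1, the normalization that holds all 13 arrays of the study. RMA is a method that corrects, normalizes and summarises the probes of a transcript, and gives a log2 intensity. The study also holds hypomorph arrays, from mice with reduced Dnmt1, the maintenance DNA methyltransferase. Those arrays entered the shared normalization, the filter, the choice of each gene's probe set and the estimate of the spread. They did not enter the group means compared.

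Per the labels, both populations carried the genotype Dnmt1+/+ on the 129ola background, and the mice were 8 to 12 weeks old. No treatment or transgene was named for these groups. RNA came from 35000 to 100000 sorted cells per preparation. The sources used here name no surface markers or gates, so each population was checked below against the genes that define it. A further 3 wildtype arrays of myeloid progenitors (MP), of the same genotype and age, were used to see whether a difference from HSC was shared by another progenitor population. Separate animals are not stated for the arrays of either population, and each p-value refers to array-to-array spread, which may be technical.

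HSC sustain all blood lineages and are mostly out of the cell cycle. On the way to the B lineage, cells come to depend on the interleukin 7 receptor. The transcription factors E2A, Ebf1 and Pax5 then act in sequence to open the B cell programme. The Rag proteins cut immunoglobulin gene segments, and a completed heavy chain pairs with the surrogate light chain, made of Igll1 and Vpreb1, to form the pre-B cell receptor, whose signal drives a burst of division.

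Of 18194 genes on the array, 12765 were tested. A gene was tested when at least 2 of the 13 arrays reached 4.64, the median of all values. A gene high in B progenitors alone could therefore pass through the 2 B progenitor arrays, and the absence of such a gene elsewhere is partly built into the choice. The arrays of a population were alike over all probe sets, with a correlation of 0.980 between the B progenitor arrays and 0.977 between the HSC arrays. Between B progenitors and HSC it lay between 0.889 and 0.903. Xist and the Y-linked Eif2s3y differed within groups. Eif2s3y was 8.68 and 2.35 on the HSC arrays and 10.16 and 2.47 on the B progenitor arrays, and Xist was 11.96 and 12.63 in HSC and 4.61 and 12.86 in B progenitors, so the arrays of a group were not matched for sex. On bulk arrays, fewer cells of a type and less RNA per cell cannot be told apart.

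B progenitors and HSC differed at 5751 genes, or 45.1% of those tested (limma, Benjamini-Hochberg adjusted p under 0.05, referred to below as called). Of all genes tested, 1896 (14.9%) were higher in B progenitors and 3855 (30.2%) were lower. The fitted difference reached 4 on the log2 scale at 115 called genes that were higher and 198 that were lower. The excess of lower genes depended on the scaling. The median log2 difference of all genes was -0.25, and the 2 B progenitor arrays had medians of 7.02 and 7.37 over the genes tested against 7.62 and 7.70 on the HSC arrays. With each array centred on its median, the median difference was 0.22 and the split was 3356 higher and 2491 lower. With arrays shifted by the median of the differences, an alternative chosen after the values were seen, it was 2609 higher and 3091 lower. The share of higher genes among those called was thus 33%, 57.4% or 45.8%. The mean of the array medians differed by -0.47, B progenitors minus HSC, so the direction of differences of that size or smaller rests on the scaling.

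**Figure D1:**
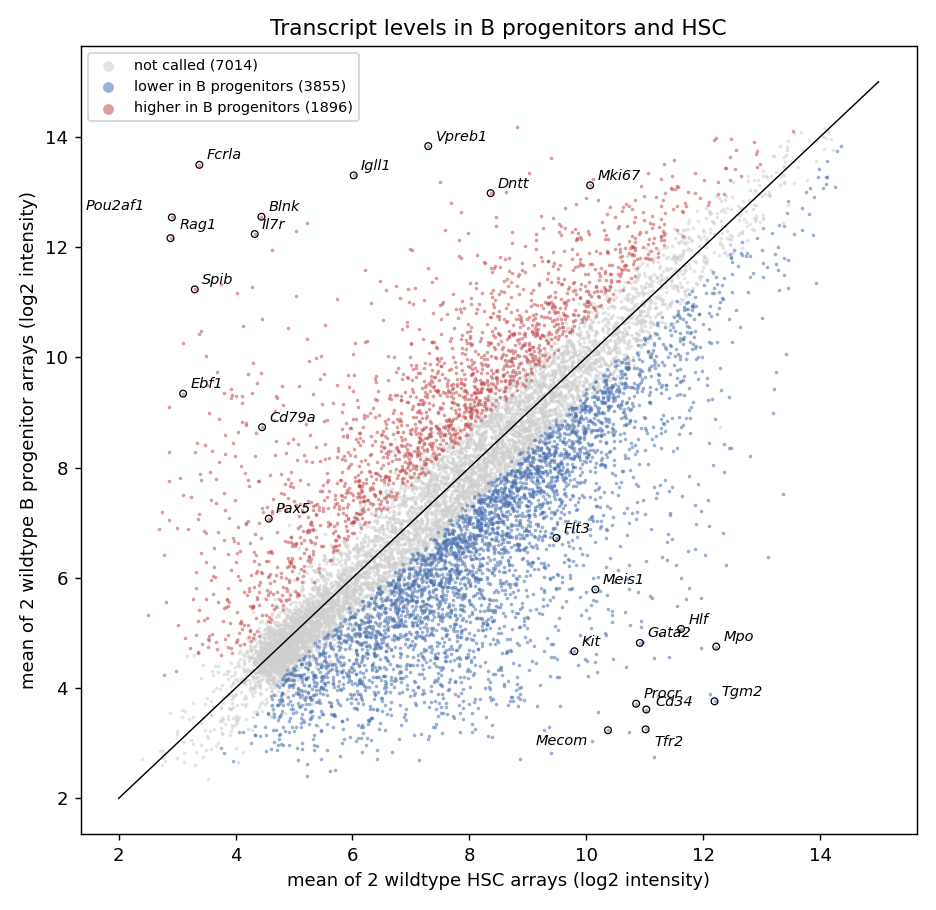
Mean log2 intensity of each of the 12765 genes tested on the 2 HSC arrays (x) and the 2 B progenitor arrays (y), with called genes in colour and the diagonal marking equal levels. B lineage genes such as Fcrla and Rag1 lie at the upper left, and stem cell genes such as Mecom and Cd34 at the lower right.

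The 12 largest rises with arrays that did not overlap were Fcrla, Pou2af1, Rag1, Blnk, Spib, Il7r, Ifi209, Vpreb3, Igll1, Trib2, Sbk1 and Tubb2b. The fitted log2 difference ran from 7.15 for Tubb2b to 10.11 for Fcrla. Fcrla, an Fc receptor-like protein retained inside B cells, read 3.46 and 3.30 on the HSC arrays and 13.60 and 13.38 on the B progenitor arrays. Its fitted difference was 10.11 ± 0.21 (SE, adjusted p = 1.85e-12). Without detection calls, a reading below 4.64 cannot be placed above or below background. Differences that involve such a level are given on the log2 scale with no fold. On the 3 MP arrays it read 3.21, 3.53 and 3.38, in the range of HSC. Not all of these genes were low in MP. Ifi209, Trib2 and Sbk1 were already higher in MP than in HSC, by 4.08, 3.98 and 2.77, and were higher again in B progenitors than in MP, by 3.49, 3.28 and 4.44.

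The regulators of the B lineage were higher in B progenitors. Of 22 transcription factors of the list, all tested, 16 were higher than in HSC, 2 were lower and 4 were not called, with a median log2 difference of 2.40 against -0.25 for all genes. Ebf1, the factor that commits cells to the lineage, read 2.85 and 3.36 on the HSC arrays and 9.66 and 9.02 on the B progenitor arrays. The difference was 6.24 ± 0.25 (limma adjusted p = 5.23e-10), and its 3 further probe sets differed by 9.50, 6.77 and 7.24. Pou2af1, the B cell coactivator of octamer factors, differed by 9.63 (3.19 and 2.63 in HSC, 12.60 and 12.48 in B progenitors). Spib and Irf4, which act in the pre-B and later stages, differed by 7.93 and 6.99.

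Pax5, the factor that holds cells in the B lineage, showed a smaller difference at a lower level. Pax5 read 4.35 and 4.78 on the HSC arrays and 7.35 and 6.80 on the B progenitor arrays, a difference of 2.51 ± 0.27 (limma adjusted p = 4.82e-06). Its other probe set differed by 1.42. Levels of different genes cannot be ranked on these arrays, so the smaller step is a statement about the probe sets. Tcf3, which encodes the E2A proteins, was well measured in HSC at 9.31 and 8.97 and rose to 11.92 and 12.02 in B progenitors. Foxo1, a factor that acts on the Rag genes, differed by 3.44, Bach2 by 4.72 and Lef1 by 5.29.

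Several regulators were shared with myeloid progenitors. Irf8 read 7.32 and 7.55 in HSC and 11.38 and 11.51 in B progenitors, a difference of 4.005, and the fitted difference between B progenitors and MP was -0.04 (limma adjusted p = 0.952). Myb was 1.06 higher than in HSC and 0.04 higher than in MP, the latter not called. Without HSC array 2 the Myb difference from HSC was 0.67 and not called (limma adjusted p = 0.071). Bcl11a and Runx1, which also act in stem cells, were lower in B progenitors than in HSC, by 1.86 and 1.09 in size. The Runx1 difference was not called without HSC array 2 (-0.70, adjusted p = 0.117) or without B progenitor array 1 (-0.81, adjusted p = 0.096). Averaged over their probe sets, neither gene was called (Bcl11a -0.13, adjusted p = 0.633, and Runx1 -0.33, adjusted p = 0.214). For Ikzf3 the call depended on the probe set. The brighter of its probe sets differed by 0.49 (adjusted p = 0.0658, or 0.048 without B progenitor array 2) and the other by 5.17 (adjusted p = 2.80e-05, in the fit of every probe set). Ikzf1 differed by 1.64 at the probe set used and by -0.55, not called, at the other, and the average of the probe sets was not called (adjusted p = 0.0505).

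**Figure D2:**
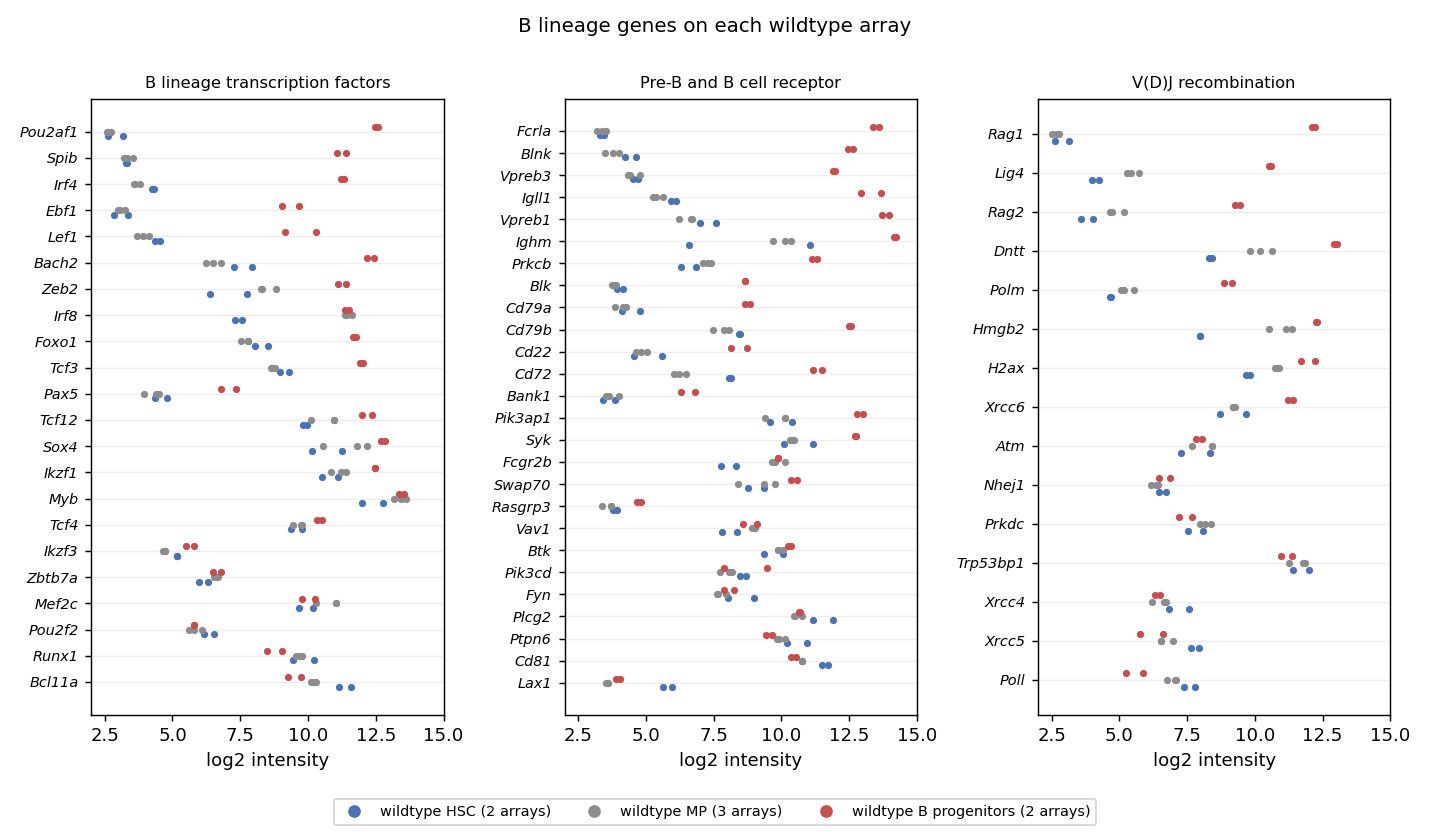
Log2 intensity (x) of every tested member of the B lineage regulator, pre-B and B cell receptor and V(D)J recombination lists, with a point per array for HSC, MP and B progenitors. Rows are ordered by the difference between B progenitors and HSC. The upper rows separate B progenitors from both other populations, and Irf8 and Fcgr2b are as high in MP.

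The components of the pre-B cell receptor were higher in B progenitors than in both other populations. Of 31 listed genes of the pre-B and B cell receptor, 26 were tested, and 19 of them were higher, 3 lower and 4 not called, with a median difference of 2.91. Igll1, the constant part of the surrogate light chain, read 5.94 and 6.10 on the HSC arrays, 5.26, 5.64 and 5.38 on the MP arrays, and 12.94 and 13.66 on the B progenitor arrays. That was a difference of 7.28 ± 0.25, or 155.5-fold (limma adjusted p = 1.36e-10). Vpreb1, its variable part, read 7.58 and 7.01 in HSC and 13.70 and 13.96 in B progenitors, a difference of 6.54. Vpreb2 is a near copy of Vpreb1 and was not analysed here, so signal of the 2 cannot be told apart. Vpreb3 differed by 7.32.

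The start sites of Igll1 and Vpreb1 lie 5.3 kb apart on chromosome 16. The 250 bases before each start (RefSeq, GRCm38.p6, 5′ to 3′, coding strand) are shown because both genes moved together. Capitals mark E-boxes, the letters CANNTG bound by E2A proteins, which read the same on both strands. The Igll1 window is chr16:16863986-16864235, minus strand, and the Vpreb1 window is chr16:16869256-16869505, minus strand. Igll1 held E-boxes starting 158, 87 and 8 bases before the start and Vpreb1 held 1, starting 88 bases before it.
Igll1: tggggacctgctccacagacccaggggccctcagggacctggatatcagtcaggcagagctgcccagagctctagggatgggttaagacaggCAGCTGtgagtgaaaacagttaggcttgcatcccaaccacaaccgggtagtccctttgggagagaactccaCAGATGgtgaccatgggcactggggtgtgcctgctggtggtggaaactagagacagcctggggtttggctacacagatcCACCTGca
Vpreb1: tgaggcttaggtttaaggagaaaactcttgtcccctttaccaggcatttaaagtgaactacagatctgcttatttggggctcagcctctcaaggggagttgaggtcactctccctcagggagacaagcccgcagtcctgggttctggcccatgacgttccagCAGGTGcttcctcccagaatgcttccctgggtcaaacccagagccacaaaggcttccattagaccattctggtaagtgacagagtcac
A match is a description of letters and not of binding. E-boxes are common: 58.0% of the 10317 tested genes with such a window held at least 1. Among genes called higher, the share was 54.8% of all windows. It was 16 of 16 for the pre-B and B cell receptor list, 6 of 7 for V(D)J recombination and 8 of 15 for the B lineage regulators.

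The signalling chains followed. Cd79a, a signalling chain of the B cell receptor, read 4.79 and 4.12 in HSC and 8.64 and 8.83 in B progenitors, and Cd79b read 8.48 and 8.42 against 12.50 and 12.58. Their differences were 4.28 and 4.09. Blnk, the adaptor that links the receptor to its effectors, differed by 8.11 (4.65 and 4.23 against 12.47 and 12.63). The kinases Blk and Syk differed by 4.61 and 2.10, whereas Btk differed by 0.59 and was not called. Plcg2 and Lax1 were lower in B progenitors than in HSC by 0.89 and 1.82 in size, and Cd81, a tetraspanin, by 1.16. Plcg2 was not called without HSC array 2 (-0.52, limma adjusted p = 0.103).

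Ighm, the heavy chain of immunoglobulin M, was uneven between the HSC arrays. It read 11.06 and 6.59 there, 9.69, 10.37 and 10.15 on the MP arrays, and 14.14 and 14.22 on the B progenitor arrays. The difference from HSC was 5.36 ± 1.10 (limma adjusted p = 0.00125), and its 7 tested probe sets differed by 0.43 to 6.85. HSC array 1 was also the higher of the pair for Jchain (11.31 and 8.74), Mzb1 (7.93 and 6.02) and Sdc1 (6.58 and 5.44), genes of antibody-secreting cells. Their part in the Ighm result was not tested. Without HSC array 1 the Ighm difference was 7.59 (adjusted p = 3.05e-05), and without HSC array 2 it was 3.12 (adjusted p = 0.0152).

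Cd22, an inhibitory coreceptor, differed by 3.36, with 5.58 and 4.56 in HSC and 8.74 and 8.13 in B progenitors. Of the 16 receptor genes called higher that had a window, Cd22 was the 1 that held the palindrome TCCCNNGGGA, a form of the Ebf1 site that reads the same on both strands. Its window is chr7:30879029-30879278, minus strand, with the palindrome in capitals, starting 49 bases before the start.
Cd22: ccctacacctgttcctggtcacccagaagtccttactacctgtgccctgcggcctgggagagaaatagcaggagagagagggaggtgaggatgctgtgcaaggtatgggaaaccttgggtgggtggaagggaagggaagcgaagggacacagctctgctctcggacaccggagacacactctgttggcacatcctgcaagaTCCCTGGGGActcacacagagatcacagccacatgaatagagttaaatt
The palindrome occurred in 0.91% of all tested windows.

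The recombination machinery was higher in part. Of 17 listed genes of V(D)J recombination, 15 were tested, with 8 higher, 2 lower and 5 not called, and a median difference of 2.12. The shares were 53.3% higher and 13.3% lower, against 14.9% and 30.2% of all genes. Rag1, a subunit of the recombinase, read 2.62 and 3.16 on the HSC arrays, 2.77, 2.67 and 2.53 on the MP arrays, and 12.22 and 12.11 on the B progenitor arrays. The difference was 9.28 ± 0.22 (limma adjusted p = 4.08e-12). Rag2, its partner, read 3.60 and 4.02 in HSC and 9.26 and 9.46 in B progenitors, a difference of 5.55. Unlike Rag1, Rag2 was called higher in MP than in HSC, by 1.04.

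Rag1 and Rag2 start 24.8 kb apart on chromosome 2, and their windows are shown as those of a second neighbouring pair with large differences. Capitals again mark E-boxes, at 135, 128 and 85 bases before the start of Rag1 (chr2:101649533-101649782, minus strand) and at 161 before that of Rag2 (chr2:101624462-101624711, plus strand).
Rag1: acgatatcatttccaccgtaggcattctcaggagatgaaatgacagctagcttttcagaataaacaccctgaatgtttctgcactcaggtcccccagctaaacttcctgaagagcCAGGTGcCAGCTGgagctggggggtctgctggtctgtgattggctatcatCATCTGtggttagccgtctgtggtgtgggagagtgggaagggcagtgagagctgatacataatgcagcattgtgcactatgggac
Rag2: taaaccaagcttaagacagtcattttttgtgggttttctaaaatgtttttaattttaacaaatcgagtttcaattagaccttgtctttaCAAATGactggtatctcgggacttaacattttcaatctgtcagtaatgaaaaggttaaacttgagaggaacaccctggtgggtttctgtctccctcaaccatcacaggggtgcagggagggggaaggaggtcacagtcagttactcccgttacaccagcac

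Dntt, the polymerase that adds untemplated nucleotides at the joints, was graded across the populations. It read 8.29 and 8.44 in HSC, 10.64, 9.82 and 10.18 in MP, and 12.93 and 13.03 in B progenitors. B progenitors exceeded HSC by 4.61 and MP by 2.76, both called. The end-joining ligase Lig4 differed from HSC by 6.44 and the polymerase Polm by 4.35. Not every end-joining gene was higher. Xrcc6 was 2.12 higher, but Xrcc5, which encodes its partner in the Ku dimer, was 1.61 lower in B progenitors (7.94 and 7.64 in HSC, 5.76 and 6.60 in B progenitors). The polymerase Poll was 2.01 lower.

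Surface markers of the B lineage were higher in B progenitors. Of 22 listed B lineage markers, 19 were tested and 14 were higher in B progenitors, 1 was lower and 4 were not called, with a median difference of 2.17. Enpep, the antigen BP-1 of pre-B cells, read 3.39 and 3.35 in HSC and 10.20 and 10.66 in B progenitors, a difference of 7.06. Il2ra, the CD25 chain present on pre-B cells, differed by 5.16. Ms4a1, or CD20, differed by 4.92, and Cd24a, already bright in HSC at 12.35 and 12.01, differed by 1.77. The marker that was lower was Cd9, which read 8.76 and 8.71 in HSC but 3.80 and 6.36 on the B progenitor arrays. The Cd9 difference of -3.65 became -2.37 without B progenitor array 1, still called.

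Genes of early lymphoid progenitors divided. Of 18 tested of 22 listed, 7 were higher (38.9%) and 9 lower (50%) in B progenitors, against 14.9% and 30.2% of all genes. With arrays centred on their medians, 8 were higher and 8 lower. The median of -0.41 then became 0.06. Il7r, the receptor chain on which early B cells depend, read 4.12 and 4.54 in HSC, 5.84, 4.97 and 5.17 in MP, and 12.17 and 12.31 in B progenitors. That was a difference of 7.91 ± 0.32 (limma adjusted p = 5.23e-10). Gfra1 and Arpp21 followed at 5.98 and 5.10. Flt3, the receptor of the earliest lymphoid progenitors, was lower in B progenitors at 7.18 and 6.27 against 8.85 and 10.13 in HSC, a difference of -2.76. Cd27 was lower by 5.47 and Ltb, a lymphotoxin chain, by 3.86. Ltb was lower still in MP, so B progenitors exceeded MP by 1.62. Jak3, the kinase of the common gamma chain, was lower than in HSC by 3.44.

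Genes of later B cells were also higher. Of 18 listed genes of mature B and antibody-secreting cells, 11 were tested. Of these, 8 were higher (72.7%, against 14.9% of all genes) and 0 lower than in HSC, with a median of 1.48. The list gave 9 higher and 1 lower against MP. Mzb1, a chaperone of immunoglobulin assembly, read 11.86 and 12.05 in B progenitors, 4.98 above HSC. Jchain, the joining chain of secreted immunoglobulin, read 9.70 and 10.001 in B progenitors and 11.31 and 8.74 in HSC, a difference of -0.17 that was not called. Without HSC array 2 the Jchain difference was -1.46 and called (limma adjusted p = 0.0212). Against MP, where it read 3.55, 3.72 and 3.29, the difference was 6.33.

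The MHC class II genes showed that HSC were not a low reference for all lymphoid genes. Of 15 tested genes of antigen presentation, 6 were higher (40%) and 5 lower (33.3%) than in HSC, against 14.9% and 30.2% of all genes. The lower share was thus near that of all genes. The list median was -0.04 and became 0.42 with centred arrays. H2-Aa, a class II chain, read 10.87 and 10.59 in HSC, 6.91, 7.06 and 6.52 in MP, and 12.07 and 11.72 in B progenitors. It was thus 1.17 above HSC and 5.07 above MP. H2-Eb1 differed from HSC by 0.07, which was not called, and from MP by 3.48. The costimulator Cd86 and the peptide loader H2-DMa were lower than in HSC, by 1.87 and 2.69.

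The stem cell programme was lower in B progenitors. Of 49 listed genes, 43 were tested, and 38 were lower, 0 higher and 5 not called (Bmi1, Zfpm1, Nr4a1, Txnip and Eya1), against 30.2% of all genes lower. The median difference was -4.12. Mecom, a transcription factor required for HSC, read 10.39 and 10.36 on the HSC arrays and 3.35 and 3.13 on the B progenitor arrays, a difference of -7.13 ± 0.35 (limma adjusted p = 2.98e-09). Procr, the endothelial protein C receptor used to sort HSC, differed by -7.14, from 11.15 and 10.56 to 4.25 and 3.18. Hlf, a factor of primitive HSC, differed by -6.55, from 10.94 and 12.30 to 5.27 and 4.88. No array of B progenitors overlapped HSC for these genes, which was also so for 68.2% of all genes tested.

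MP divided the stem cell list. Against MP, B progenitors were lower at 25 genes, higher at 2 and not called at 16. Of those 25, 11 were not called between MP and HSC. Cd34, a surface sialomucin, read 10.74 and 11.31 in HSC, 11.48, 11.11 and 11.50 in MP, and 3.83 and 3.40 in B progenitors. The B progenitor arrays lay below all HSC and MP arrays. Kit, the stem cell factor receptor, was 5.13 below HSC and 5.61 below MP. Gata2, a factor of stem cells and mast cells, was 6.10 below HSC and 5.54 below MP. Myct1, Angpt1 and Vwf were lower than in MP by 6.34, 5.82 and 5.59.

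Other stem cell genes were low in MP too. Robo4, an HSC homing receptor, read 8.29 and 8.52 in HSC, 5.01, 4.94 and 5.28 in MP, and 4.79 and 4.99 in B progenitors. The difference between B progenitors and MP was -0.19 (limma adjusted p = 0.742). Fgd5, a marker gene of HSC, differed from MP by -0.70, also not called, and from HSC by -4.46. Mecom, Procr and Hlf lay in between, with MP 4.49, 4.34 and 3.77 below HSC and B progenitors a further 2.64, 2.79 and 2.78 below MP. Cdkn1c, the p57 inhibitor of cycling, went the other way: it was 1.73 lower than in HSC but 2.26 higher than in MP. The difference of Cdkn1c from HSC was not called without HSC array 1 (-1.40, limma adjusted p = 0.0672) or B progenitor array 2 (-1.35, adjusted p = 0.0819).

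**Figure D3:**
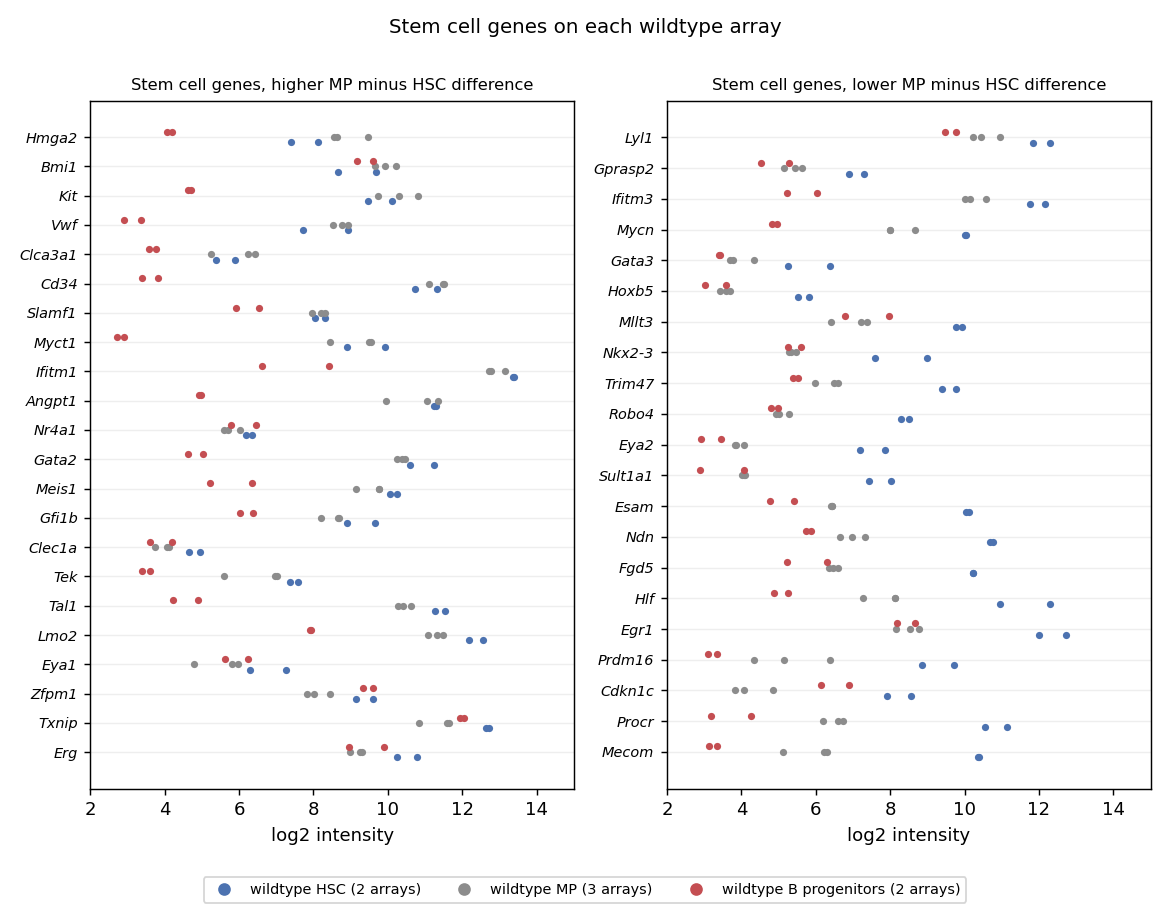
Log2 intensity (x) of the 43 tested stem cell genes with a point per array. Rows are ordered by the difference between MP and HSC, so that genes kept in MP (Kit, Cd34) stand at the top left and genes low in MP (Mecom, Procr) at the lower right. B progenitor points lie to the left of the HSC points for nearly all genes.

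Promoter windows differ in base composition. The window of Hlf is shown as an example of a CpG-rich one, with CpG dinucleotides in capitals (chr11:90390918-90391167, minus strand), since it holds 26 of them, an observed over expected ratio of 0.93, against 1 and 2 in the windows of Igll1 and Vpreb1.
Hlf: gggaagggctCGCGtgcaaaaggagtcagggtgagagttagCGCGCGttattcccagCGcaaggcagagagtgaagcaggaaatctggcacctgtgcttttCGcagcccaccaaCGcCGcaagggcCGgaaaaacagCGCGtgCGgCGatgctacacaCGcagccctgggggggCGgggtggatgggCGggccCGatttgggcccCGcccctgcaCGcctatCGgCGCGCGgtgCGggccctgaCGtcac
Hlf does not stand for the genes that fell, since the 29 windows of stem cell genes called lower had a median ratio of 0.453. The ratio was below 0.5 in 27.2% of all tested windows, in 20.6% of those of all genes called higher and in 29.9% of those of all genes called lower. It was below 0.5 in 13 of the 16 windows of receptor genes called higher (81.2%), in 45% of the 100 largest rises and in 55% of the 100 largest falls, and in 51.7% of the stem cell genes called lower. Mitosis genes, with 2 of 35 below 0.5 (5.7%), were the other extreme. These shares are descriptions of promoter letters, and no methylation was measured.

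The largest falls went beyond the stem cell list. They were Tgm2, Fkbp9, Tmem40, Tfr2, Gcnt2, Mpo, Cd34, Krt18, Nfe2, Procr, Mecom and Pglyrp2, with differences from -7.07 to -8.43. Tgm2, a transglutaminase, read 12.03 and 12.36 in HSC, 6.95, 7.21 and 7.77 in MP, and 3.90 and 3.63 in B progenitors, so the 3 populations did not overlap. Fkbp9, a prolyl isomerase of the endoplasmic reticulum, read 11.04 and 11.29 in HSC and stayed at 10.32, 9.82 and 10.73 in MP, but read 2.83 and 2.67 in B progenitors.

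HSC carried transcripts of other lineages that were low in B progenitors. Mpo, the myeloperoxidase of granulocyte precursors, read 12.19 and 12.26 in HSC, 14.57, 14.63 and 14.58 in MP, and 4.32 and 5.19 in B progenitors. The difference was -7.47 against HSC and -9.84 against MP. Of 29 tested myeloid genes, 19 were lower (65.5%, against 30.2% of all genes) and 1 higher than in HSC, with a median of -1.66. Compared with MP, 24 were lower (82.8%, against 24.7% of all genes) and 0 higher, with a median of -3.11. Prtn3 and Csf1r were 5.93 and 1.40 lower than in HSC. Spi1, a factor of myeloid and early B cells, read 8.81 and 8.98 in HSC and 7.19 and 7.05 in B progenitors. The myeloid gene that was higher was Ly86, the partner of Cd180, by 4.16. On the B progenitor arrays Csf1r read 5.96 and 5.16 and Cebpa, a factor of granulocyte precursors, read 3.95 and 4.19.

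Among megakaryocyte genes, 14 of 19 tested were lower (73.7%, against 30.2% of all genes) and 0 higher, with a median of -2.98. Pf4, a platelet chemokine, read 10.42 and 9.29 in HSC and 5.11 and 3.73 in B progenitors, and F2r, a thrombin receptor, was 6.10 lower. Among erythroid genes, 9 of 20 were lower (45%, against 30.2% of all genes) and 1 was higher, with a median of -0.81. With centred arrays 8 were lower and 1 higher, and the median became -0.345. Nfe2 was 7.24 lower than in HSC, whereas Tfrc, the transferrin receptor of dividing cells, was 2.79 higher. Gata1 and Klf1 were modest in HSC and lower again in B progenitors, by 1.95 and 2.56.

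Markers of other cells that a marrow sort could hold were checked. Of 13 tested T and NK cell genes, 1 was higher and 4 lower (30.8%, against 30.2% of all genes). With centred arrays 4 were higher and 3 lower. The mean level of the list was 5.51 and 5.41 on the HSC arrays and 4.95 and 5.16 on the B progenitor arrays. Trat1 read 3.27 and 5.89 on the B progenitor arrays and was not called, although without B progenitor array 1 it was, at 2.72 (limma adjusted p = 0.000342). Of 17 listed macrophage and stroma genes, only 9 were tested, with 0 higher and 3 lower (33.3%, near the 30.2% of all genes). Of 13 listed genes of plasmacytoid dendritic cells, 6 were tested, with 1 higher and 3 lower (50%). Siglech, the defining surface protein of these cells, read 4.78 and 4.90 in HSC and 5.06 and 5.34 in B progenitors. The mean level of the macrophage and stroma list was 5.47 and 5.46 in HSC and 4.31 and 4.38 in B progenitors, and that of the dendritic cell list was 6.20 and 6.58 against 6.20 and 5.88.

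Hox genes were lower or not called. Of 39 listed, 13 were tested, with 7 lower (53.8%, against 30.2% of all genes) and 0 higher, and a median of -0.62. With centred arrays 5 were lower and 0 higher, and the median became -0.154. Hoxa9, a Hox gene of stem and progenitor cells, read 12.41 and 11.93 in HSC and 6.79 and 9.30 on the 2 B progenitor arrays. The B progenitor arrays were uneven, and neither overlapped HSC (difference -4.13 ± 0.55).

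**Figure D4:**
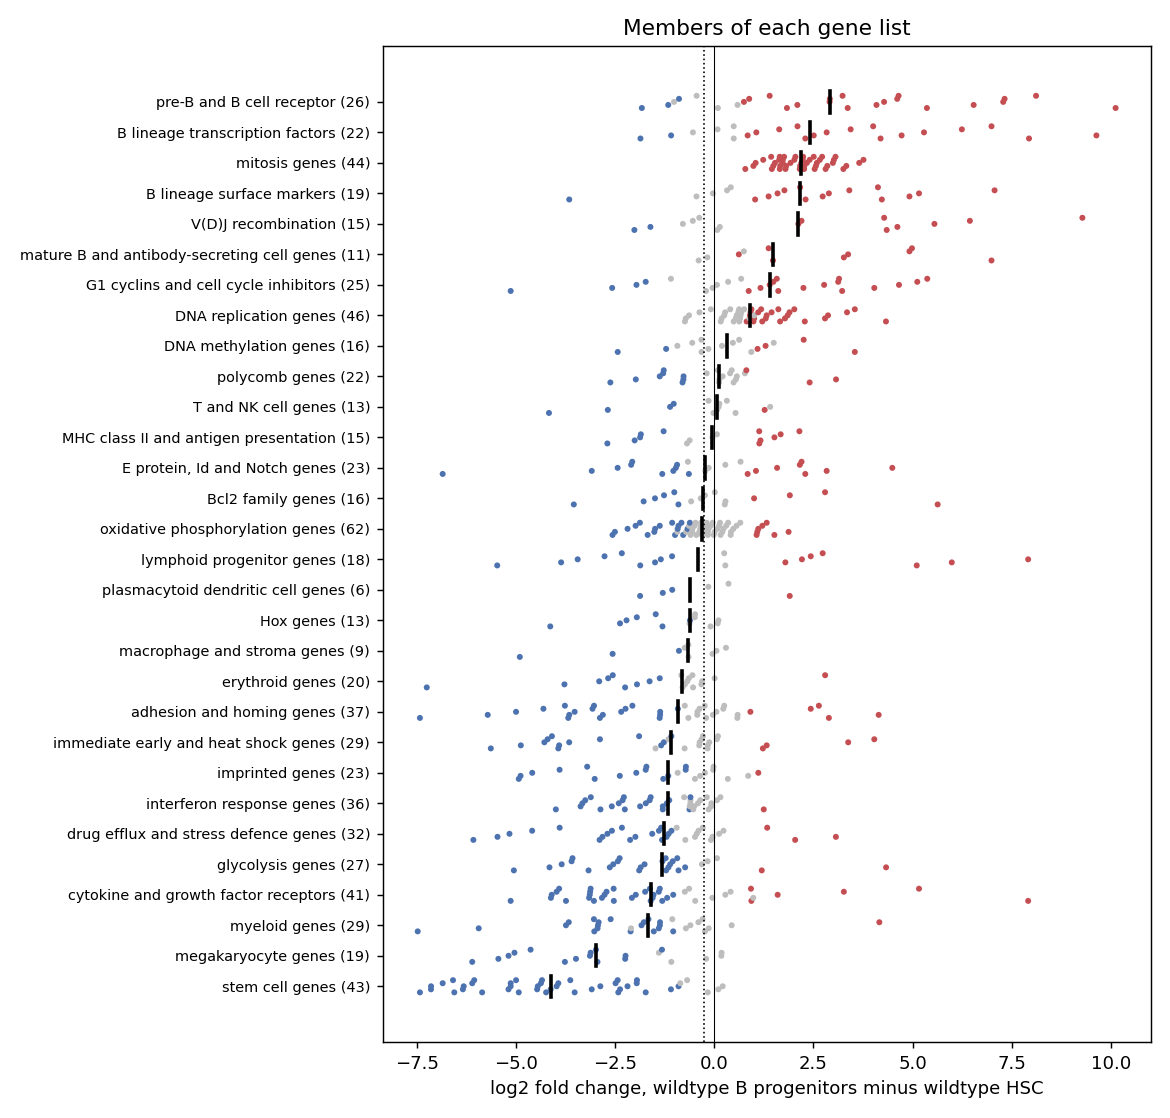
Log2 difference between B progenitors and HSC (x) for each tested member of 30 gene lists, with the number tested in parentheses, the list median as a black bar and called members in red (higher) or blue (lower). The dotted line is the median of all genes, -0.25. The pre-B receptor list has the highest median (2.91) and the stem cell list the lowest (-4.12).

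B progenitors showed the transcripts of cycling cells. All 44 tested mitosis genes were higher than in HSC, with a median difference of 2.18, and all 44 were also higher with centred arrays. Mki67, a marker of cycling cells, read 9.999 and 10.13 in HSC, 11.86, 11.48 and 11.97 in MP, and 12.98 and 13.26 in B progenitors. It was 8.31-fold above HSC (difference 3.06 ± 0.28, limma adjusted p = 1.33e-06). The range was from 0.78 for Foxm1 to 3.76 for Ect2. Foxm1 was not called without HSC array 1 (0.50, limma adjusted p = 0.235) or without B progenitor array 1 or 2 (0.0925 and 0.106). MP shared the direction, with 40 of 44 higher than HSC, and B progenitors were higher than MP at 23 of the 44 and lower at 1, Ube2c. The list mean was 7.90 and 8.06 in HSC, 9.48, 9.32 and 9.45 in MP, and 9.98 and 10.34 in B progenitors.

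Replication genes were higher in part. Of 46 tested, 24 were higher (52.2%, against 14.9% of all genes) and 0 lower than in HSC, with a median of 0.91. With centred arrays 39 were higher. Rrm2, a subunit of ribonucleotide reductase, differed by 4.33 (9.15 and 8.90 against 13.33 and 13.38). Mcm4, a subunit of the replicative helicase, differed by 3.35, while Mcm7 and Mcm3 of the same helicase differed by 0.16 and -0.09 and were not called. Against MP the list gave 5 higher and 4 lower, and 20 higher and 1 lower with centred arrays.

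The G1 regulators that were higher in B progenitors included both activators and brakes. Of 25 tested, 15 were higher (60%) and 4 lower (16%), against 14.9% and 30.2% of all genes. Ccne2, a cyclin of S phase entry, read 4.34 and 3.54 in HSC and 9.15 and 9.47 in B progenitors, a difference of 5.37. Ccnd3, the D cyclin on which pre-B cell division depends, was 1.58 higher at the probe set used, but 0.39 higher and not called when its probe sets were averaged (limma adjusted p = 0.172). Ccnd2 was 1.96 lower. The inhibitors Cdkn2c, Cdkn1b and Btg2 were 3.12, 2.77 and 4.03 higher. Myc was lower, at 7.08 and 6.72 against 9.02 and 9.92, and Mycn was lower by 5.13.

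**Figure D5:**
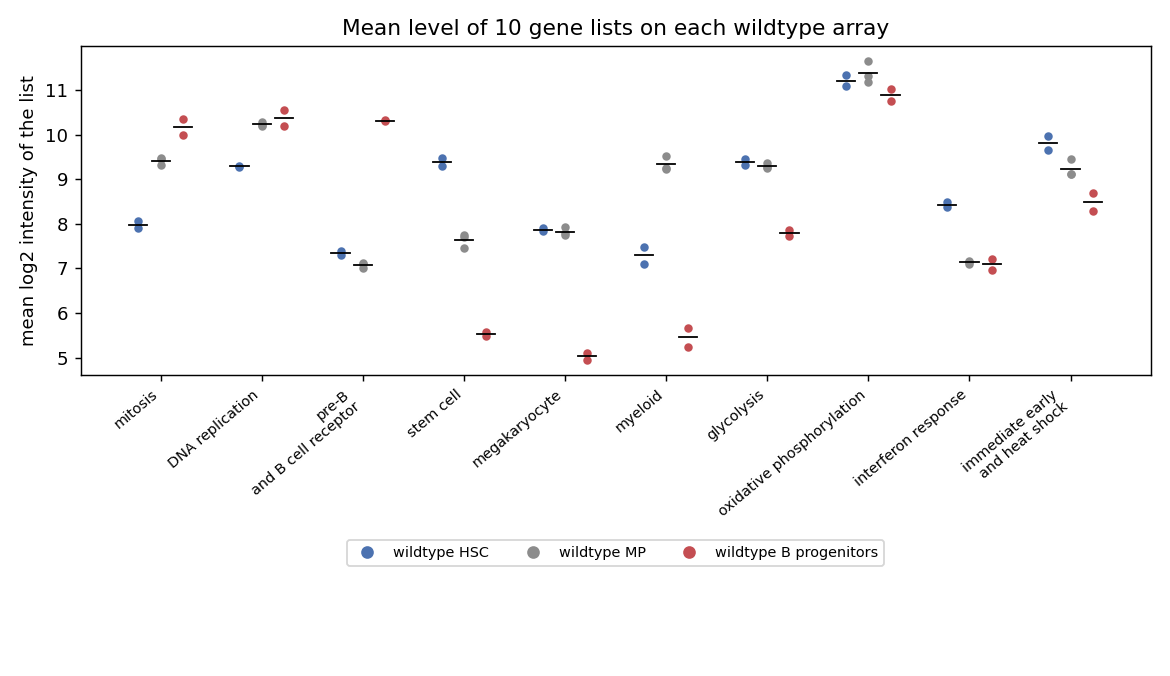
Mean log2 intensity of the tested members of 10 gene lists (y) on each array of wildtype HSC, MP and B progenitors, with a short bar at the group mean. Mitosis genes step up from HSC to MP to B progenitors, glycolysis genes lie at 9.32 and 9.46 in HSC, 9.25 to 9.36 in MP and 7.72 and 7.85 in B progenitors, and interferon response genes are lower in both progenitors.

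Of 16 tested genes of the DNA methylation machinery, whose maintenance enzyme the study altered in other arrays, 4 were higher and 2 lower. These shares of 25% and 12.5% stand beside 14.9% and 30.2% of all genes, and with centred arrays 8 were higher and 2 lower. Dnmt1 read 11.80 and 11.58 in HSC and 12.24 and 12.40 in B progenitors, a difference of 0.63 ± 0.27 that was not called (limma adjusted p = 0.0711). It passed the threshold when hypomorph HSC array 2 or 3 was left out of the estimate of the spread (0.0442 and 0.0432). Against MP it was 0.84 higher (adjusted p = 0.015). Uhrf1, which guides Dnmt1 to replicated DNA, read 9.55 and 7.93 in HSC and 12.25 and 12.31 in B progenitors, a difference of 3.54, and the helicase Hells differed by 2.25. Dnmt3b, a de novo methyltransferase, read 10.86 and 10.81 in HSC and 8.39 and 8.42 in B progenitors, a difference of -2.43. Dnmt3a, the other such enzyme, differed by -1.21 at the probe set used, but by -0.08 when its probe sets were averaged (limma adjusted p = 0.76).

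Polycomb genes were divided. Ezh2, the methyltransferase of the repressive complex 2, read 9.58 and 9.69 in HSC and 12.66 and 12.74 in B progenitors, a difference of 3.07, and its partner Suz12 differed by 2.40. Ezh1, the alternative enzyme, was 0.77 lower, and was not called without HSC array 2 (-0.59, limma adjusted p = 0.104). The chromobox genes Cbx6, Cbx7 and Cbx8 of complex 1 were lower by 2.62, 1.98 and 1.37. In all, 3 of 22 were higher and 8 lower (36.4%, against 30.2% of all genes), and with centred arrays 9 were higher and 4 lower. Imprinted genes were lower at 14 of 23 (60.9%, against 30.2% of all genes) and higher at 1, Igf2r. With centred arrays 12 were lower and 2 higher. Ndn read 10.77 and 10.69 in HSC and 5.88 and 5.73 in B progenitors, Meg3 differed by -3.90 and Grb10 by -4.59. MP showed 11 of the 23 lower than HSC, and Meg3 differed between B progenitors and MP by -0.43, not called, while Grb10 differed by -4.21.

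Glycolysis genes were lower in B progenitors than in both other populations. Of 27 tested, 22 were lower (81.5%, against 30.2% of all genes) and 2 higher than in HSC. With centred arrays 16 were lower and 2 higher than in HSC. Compared with MP, 18 were lower (66.7%, against 24.7% of all genes) and 1 higher. Ldhb, a lactate dehydrogenase subunit, read 11.17 and 11.59 in HSC and 6.24 and 6.42 in B progenitors, a difference of -5.05. Aldoa differed by -3.17, Hk1 by -2.63 and Pkm by -1.89. The lactate transporter Slc16a1 was the largest exception, 4.33 higher. Oxidative phosphorylation genes were mostly not called. Of 62, 17 were lower (27.4%) and 7 higher (11.3%), near the 30.2% and 14.9% of all genes. With centred arrays 8 were lower and 16 higher, and the median of -0.30 became 0.17. Cycs, cytochrome c, was 1.87 higher, but its HSC arrays read 10.98 and 9.70. Without HSC array 2 the Cycs difference was 1.23, still called.

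Detoxification genes were mostly lower in B progenitors than in both other populations. Of 32 tested genes of drug efflux and stress defence, 19 were lower (59.4%) and 3 higher (9.38%) than in HSC. The shares of all genes were 30.2% and 14.9%. Against MP, 19 were lower and 0 higher, while MP differed from HSC at 7 lower and 5 higher. Aldh1a1, an aldehyde dehydrogenase, read 9.15 and 9.58 in HSC and 3.29 and 3.30 in B progenitors, a difference of -6.07. The glutathione transferases Gstm5 and Gsta4 differed by -5.46 and -5.16. Catalase, Cat, was 3.07 higher.

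Many interferon response genes were lower than in HSC. Of 36 tested interferon genes, 21 were lower (58.3%, against 30.2% of all genes) and 1 higher, with a median of -1.16. Iigp1, a GTPase of cell-autonomous immunity, read 7.92 and 8.10 in HSC, 4.04, 3.90 and 3.46 in MP, and 4.52 and 3.52 in B progenitors. Against MP the list gave 7 higher and 6 lower, with a median of 0.15, and 13 higher and 4 lower with centred arrays. Of 29 immediate early and heat shock genes, 13 were lower (44.8%), 4 higher (13.8%) and 12 not called. The higher share was near the 14.9% of all genes, and the lower share stood beside 30.2%. With centred arrays 11 were lower and 4 higher. Ier3 differed by -5.63 and Egr1 by -3.93. Fos read 12.96 and 13.43 in HSC and 6.80 and 11.20 on the B progenitor arrays, so its difference of -4.20 ± 0.93 rests on uneven arrays. Without B progenitor array 1 the Fos difference was -1.996 (limma adjusted p = 0.00699), and without array 2 it was -6.40 (adjusted p = 1.42e-06). Klf2, a factor of lymphocyte quiescence and homing, was 3.38 higher. Jund was 1.32 higher, but was no longer called without HSC array 2 (adjusted p = 0.0609) or without B progenitor array 1 or 2 (0.0501 and 0.0509).

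Receptors and adhesion molecules were mostly lower. Of 41 tested cytokine and growth factor receptors, 28 were lower (68.3%) and 6 higher (14.6%), against 30.2% and 14.9% of all genes. Besides Il7r, the receptors higher in B progenitors included Il2ra and Tnfrsf13c, the BAFF receptor (6.88 and 5.91 in HSC, 9.56 and 9.76 in B progenitors). Those lower included Csf3r by 3.73, Tek by 3.97 and Tgfbr3 by 4.11. Of 37 tested adhesion and homing genes, 19 were lower (51.4%) and 5 higher (13.5%, near the share of all genes). Their median of -0.915 became -0.447 with centred arrays. Cxcr4, the receptor that retains B progenitors in marrow, read 7.32 and 5.73 in HSC and 10.66 and 10.68 in B progenitors. Esam and Itga2b were lower by 4.99 and 3.76.

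Survival and death genes of the Bcl2 family went both ways. Of 16 tested, 4 were higher (25%) and 6 lower (37.5%) than in HSC, against 14.9% and 30.2% of all genes. The median was -0.29, against -0.25 for all genes. With centred arrays 6 were higher and 3 lower, and the median became 0.18. Bcl2 read 8.39 and 8.68 in HSC, 9.85, 9.14 and 9.75 in MP, and 4.64 and 5.36 in B progenitors, a difference of -3.54. The other survival protein Bcl2l1, or Bcl-xL, was 1.91 higher, while Mcl1 differed by -0.23 and was not called. The death-promoting Bmf read 4.88 and 4.92 in HSC and 10.49 and 10.57 in B progenitors, a difference of 5.63, and Bcl2l11, or Bim, was 2.79 higher. Other death-promoting members were among the lower genes, with a largest difference of -1.78.

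Regulators of E protein activity also divided. Of 23 genes of the E protein, Id and Notch list, 8 were higher (34.8%) and 10 lower (43.5%), with a median of -0.22. The shares over all genes were 14.9% and 30.2%. With centred arrays 10 were higher and 5 lower, and the median became 0.24. Id3, an inhibitor of E proteins, read 3.29 and 4.63 in HSC, 3.30, 3.41 and 3.27 in MP, and 8.10 and 8.80 in B progenitors. Id2, the inhibitor that was high in MP at 7.70, 7.78 and 7.64, read 6.16 and 7.07 in B progenitors and 4.64 and 5.43 in HSC. Averaged over its probe sets, Id2 differed from HSC by 0.63 and was not called (limma adjusted p = 0.0943). Id1 was 2.07 lower than in HSC. The stem cell E protein partners Tal1 and Lyl1 were lower by 6.84 and 2.43.

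Against MP, B progenitors differed at 4580 genes, 1430 higher (11.2%) and 3150 lower (24.7%). Without B progenitor array 1 the lower count was 1961. The comparison shares the B progenitor arrays with the comparison against HSC, so the pair are not independent. The B lineage lists again stood on the higher side. Regulators gave 15 higher and 2 lower of 22, the pre-B and B cell receptor list 17 higher and 0 lower of 26, and the recombination list 7 higher and 2 lower of 15. The largest differences were Fcrla at 10.12, Pou2af1 at 9.86, Rag1 at 9.50 and Blnk at 8.79 on the higher side, and Mpo at -9.84, Ctsg at -9.17, Prtn3 at -9.16 and Ms4a3 at -7.88 on the lower side. MP differed from HSC at 4056 genes, 1757 higher (13.8%) and 2299 lower (18%). Without HSC array 2 that total was 2547. In that comparison the pre-B and B cell receptor list gave 2 higher and 5 lower, and its median was -0.26.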

How the data were processed

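Per the labels, the authors extracted total RNA of sorted cells, hybridised it to Affymetrix arrays and computed RMA values with all 13 arrays together. The deposited values were read as log2 intensities, since RMA gives that unit and they ran from 1.93 to 14.99. The base is inferred, and every fold rests on it. The version of RMA and detection calls are not given in the sources used here. Precision is limited by how few arrays there are.

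Of 45101 probe sets, 34958 carried 1 gene symbol of the platform annotation, 932 several and 9211 none. Only the first kind was used. Probe sets entered the fit if 2 or more of the 13 arrays reached 4.64. Each gene was represented by its brightest probe set on average, so genes of several probe sets rest on that choice. Of the 2670 called genes with further tested probe sets, 641 had one with the opposite direction, which was itself called in 101.

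A limma 3.58.1 model (R 4.3.3) of the 5 groups, without covariates, was fitted to all 13 arrays, because the groups compared have 2 arrays each. It had 8 residual degrees of freedom, and errors given with ± are its standard errors. The Benjamini-Hochberg adjustment ran over the 12765 genes tested, with a threshold of 0.05. The fit was tested on simulated data. Gene lists (31 lists, 848 genes) were described by counts and medians, with no set test. Lists, members and naming rule were chosen with earlier results of these data known. The rule named a fixed set of genes, the 12 largest called rises and falls with arrays that did not overlap, up to 5 called members of each list in each direction, members of the B lineage, recombination, lymphoid and stem cell lists, and the genes that differed most from MP. Other genes of a list were named for their role after their values were seen, among them Ccnd3, Cdkn1b, Cdkn2c, Csf1r, Cebpa, Spi1, Gata1, Id2, Mcl1, Aldoa, Hk1, Pkm and Jchain. Promoter windows (RefSeq) matched 10317 genes by symbol. Alternatives covered the arrays fitted, the replicate number, the prior, array weights, the filter, the probe sets, centring, a minimum change and leaving out each array.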

Additional observations from a re-analysis of the deposited data

How the results depend on the processing

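With 28 alternatives, of which 13 left out an array, 127 of the 152 called genes named in the text kept their call and direction under every one, and 25 lost the call under at least 1. The 10 that changed sign were not called in the fit reported. The cause of these changes was not tested unless the setting itself shows it.

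The count of 5751 genes called between B progenitors and HSC lay between 4717 and 6165 without each array in turn, with 1375 to 2049 higher and 3017 to 4116 lower. The count against MP lay between 3072 and 4968 (1111 to 1562 higher, 1961 to 3406 lower), and that of MP against HSC between 2547 and 4555 (1159 to 2022 higher, 1388 to 2533 lower). Tested per probe set, 9161 probe sets were called, 3807 of them higher, with 7397 against MP (2883 higher) and 2884 higher in MP than in HSC. Requiring a log2 difference of more than 1 left 1952 genes (600 higher, 1352 lower), 1250 against MP (392 and 858) and 578 for MP against HSC (269 and 309). Centred on their medians, the arrays gave 3356 higher and 2491 lower than in HSC, and 3082 and 2032 against MP. The settings that neither left out an array nor used the replicate block or a minimum change gave, per gene, 4626 to 6014 genes. Deviations of same-numbered B progenitor and HSC arrays were not correlated (-0.028). That correlation cannot show whether same-numbered arrays share a preparation, since it compares only the arrays within each group. Eif2s3y and Xist, given above, differed in the same direction between the arrays of HSC and of B progenitors. Whether the numbers pair the arrays was not tested. The fit with the replicate number as a block called 5497 genes, and with the 4 arrays compared alone it called 4486, against 4711 without the block.

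With each gene averaged over its probe sets, Mcl1 was 0.225 and Mcm3 0.70, the latter called (limma adjusted p = 0.0446). With arrays centred on their medians Jchain was 0.295, Mcl1 0.234, Mcm3 0.383 and Nr4a1 0.306, and with the median difference removed, a setting chosen after seeing the data, they were 0.084, 0.023, 0.171 and 0.095. Without each array in turn the difference ran from -0.01 to 0.147 for H2-Eb1, -1.459 to 1.112 for Jchain, -0.12 to 0.449 for Mcm7, -0.115 to 0.322 for Zfpm1, -0.308 to 0.733 for Bmi1, -3.042 to 4.647 for Eif2s3y, -0.5 to 0.328 for Mcm3, -7.683 to 0.564 for Xist and -0.5 to 0.176 for Nr4a1. With 2 arrays a group, a lone array was assumed to vary like the other groups.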
